A study of Homo sapiens with 24 samples.

Results

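The 9 genes described here, PINK1, PARK7, LRRK2, VPS35, UCHL1, FBXO7, DNAJC6, SYNJ1 and PLA2G6, are genes whose inherited variants have been linked to familial parkinsonism. They were chosen by name, as the rows of the raw count matrix that carry these symbols, and are 9 of the 58051 genes in that matrix. Their transcript levels were followed in dopaminergic-type neurons by RNA sequencing. The neurons were made from LUHMES, an established line of immortalised precursors from the human midbrain.

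The genes fall into a few connected pathways. PINK1 is a kinase that accumulates on depolarised mitochondria and phosphorylates ubiquitin there, which marks the organelle for autophagy (mitophagy). FBXO7, a substrate receptor of an SCF ubiquitin ligase, acts in the same pathway, and PARK7 (DJ-1) is a redox-sensitive protein that protects cells from oxidative stress. UCHL1 is a ubiquitin hydrolase that is among the most abundant proteins of neurons. VPS35 is the core of retromer, the coat that returns receptors from endosomes, and LRRK2 is a kinase of RAB GTPases that acts on the same membranes. DNAJC6 (auxilin) and SYNJ1 (synaptojanin) strip the clathrin coat from synaptic vesicles, and PLA2G6 is a calcium-independent phospholipase that remodels membrane lipids.

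All cultures were of one cell line, differentiated with tetracycline, cAMP and GDNF, and all held 1% DMSO for 6 h, either alone (the vehicle group, DMSO) or with 1 of 7 toxicants. The toxicants were MS275 (entinostat, which blocks class I histone deacetylases) at 5 µM, paraquat at 5 µM, MPP (the 1-methyl-4-phenylpyridinium ion, which blocks mitochondrial complex I) at 5 µM, and ziram (a zinc dithiocarbamate fungicide) at 2 µM. The others were rotenone (a complex I inhibitor) at 1 µM, 6-HD (6-hydroxydopamine) at 1 µM and methylmercury at 0.5 µM. Each of the 8 groups had 3 libraries, labelled as biological triplicates, and since nothing further is said of separate cultures or days, p-values measure the spread between these samples, which may in part be technical. Only one line was used, so differences between people are not sampled.

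Totals of reads counted to genes ranged from 9.69 to 46.9 megareads per library, with the lowest in rotenone and the highest in ziram. Neuronal markers were present in the counts: MAP2, a dendritic microtubule protein, stood at 1246 ± 37.9 CPM (counts per megaread; SD, n = 3) in DMSO, SLC6A3, the dopamine transporter, at 636 ± 59.9 CPM and TH, the enzyme that commits tyrosine to dopamine, at 50.8 ± 4.7 CPM. GFAP, an astrocyte filament, and AIF1, a microglial protein, gave 2 and 4 reads in the 3 DMSO libraries together, and MKI67, a proliferation marker, 22.9 ± 2.35 CPM. In DMSO a list of 17 cycling-cell markers summed to 868 to 919 CPM and one of 16 dopaminergic markers to 769 to 873 CPM. Of those 16, 3 had 0 reads in the DMSO libraries. CPM here are relative to library totals scaled by the trimmed mean of M values (TMM). In RNA from whole cultures, fewer cells of a type and less RNA per cell cannot be told apart.

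In vehicle-treated neurons the 9 genes covered a very wide range of levels per length. UCHL1 was the most abundant at 521 ± 27.2 CPM per kilobase of exon (SD, n = 3), above 99.9% of the tested genes. PARK7 followed at 80.1 ± 0.955, VPS35 at 37.1 ± 1.82 and FBXO7 at 15.8 ± 0.505 CPM per kilobase. PINK1 at 7.71 ± 0.595 and DNAJC6 at 5.94 ± 0.472 CPM per kilobase were also above the median of 2.81 CPM per kilobase over tested genes. SYNJ1 at 2.71 ± 0.192 sat beside that median, and PLA2G6 at 1.1 ± 0.0362 CPM per kilobase below it. LRRK2 was close to silent at 0.0106 ± 0.00629 CPM per kilobase. The DMSO libraries of neighbouring genes in this order did not overlap, and the order was the same per kilobase of coding sequence, a length added after the values were seen.

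**Figure D1:**
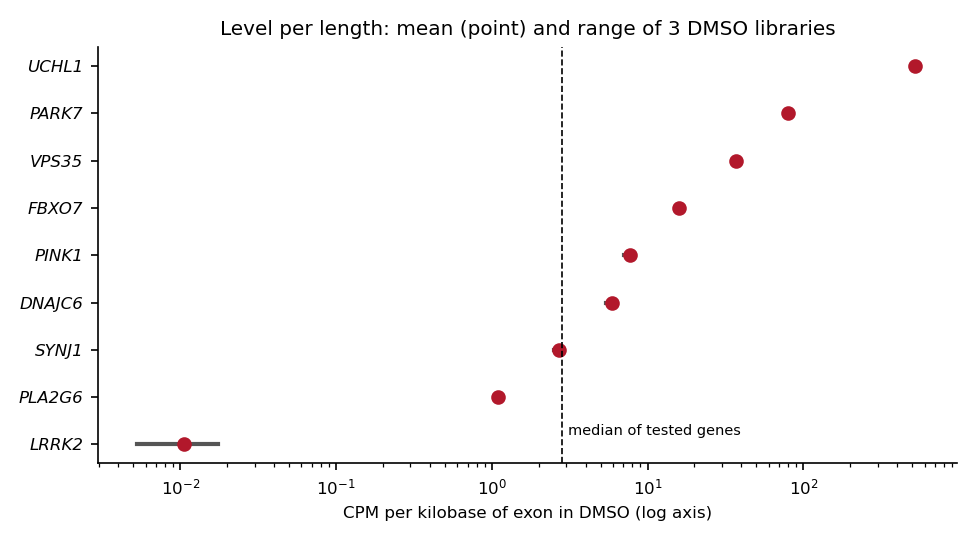
Level of each gene in the 3 DMSO libraries in CPM per kilobase of exon, on a log axis (point, mean; bar, range of the 3 libraries; dashed line, median of the tested genes at 2.81). UCHL1 lies far to the right at 521 and LRRK2 far to the left at 0.0106, with the other 7 genes in between.

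Stretches upstream of a RefSeq start of 4 genes are shown because 2 of them, FBXO7 and VPS35, were lower under MS275 and the other two, PARK7 and PLA2G6, were not called under any toxicant. Each was taken from the 250 bases before a RefSeq start (GRCh38.p14), written 5′ to 3′ on the gene's strand with bases annotated as UTR left out. Capitals mark matches, on either strand, of 6 motifs: the E-box CACGTG, the cAMP response element TGACGTCA, the core of the antioxidant response element TGACNNNGC, the GC box GGGCGG, the NRF1 site (GCGC, any 2 bases, GCGC) and the TATA box TATAAA. The FBXO7 stretch, before the first of its 2 listed starts, is chr22:32474561-32474675 on the plus strand, VPS35 chr16:46689195-46689428 on the minus strand, PARK7 chr1:7961461-7961662 on the plus strand and PLA2G6 chr22:38181831-38182080 on the minus strand.
FBXO7: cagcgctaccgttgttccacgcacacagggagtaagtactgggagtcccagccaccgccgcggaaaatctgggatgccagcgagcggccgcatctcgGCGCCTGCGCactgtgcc
VPS35: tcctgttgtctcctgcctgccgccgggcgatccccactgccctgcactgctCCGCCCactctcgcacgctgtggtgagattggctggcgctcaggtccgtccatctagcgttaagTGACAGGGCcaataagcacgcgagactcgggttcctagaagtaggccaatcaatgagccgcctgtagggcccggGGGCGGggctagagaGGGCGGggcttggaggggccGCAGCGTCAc
PARK7: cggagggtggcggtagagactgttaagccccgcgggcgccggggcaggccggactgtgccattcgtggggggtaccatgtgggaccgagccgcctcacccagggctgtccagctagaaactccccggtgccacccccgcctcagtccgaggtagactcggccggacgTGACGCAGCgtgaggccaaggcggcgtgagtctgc
PLA2G6: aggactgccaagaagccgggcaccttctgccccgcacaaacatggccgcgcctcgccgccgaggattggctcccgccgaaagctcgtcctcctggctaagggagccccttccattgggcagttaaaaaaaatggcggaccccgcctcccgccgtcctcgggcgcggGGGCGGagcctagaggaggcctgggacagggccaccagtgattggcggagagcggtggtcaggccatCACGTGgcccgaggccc

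Over the whole 250-base windows, FBXO7 at its first listed start held 1 NRF1 site, 1 antioxidant core and 1 GC box. VPS35 held 2 antioxidant cores and 3 GC boxes. PARK7 held 1 antioxidant core and no GC box, and PLA2G6 1 E-box and 1 GC box. Among 35116 promoter windows of the same length, 7.16% held the NRF1 site, 10.9% the antioxidant core, 42.6% the GC box and 6.34% the E-box. The cAMP response element, present in 1.65% of windows, matched in none of these 4, nor did the TATA box, present in 10.7%, which matched before UCHL1. By the GENCODE 29 spans the FBXO7 stretch lies before its gene, while those of VPS35, PARK7 and PLA2G6 lie inside their genes, whose outermost annotated starts are farther upstream. These matches are descriptions of letters and say nothing of binding. Of the 9 genes, 8 had an entry in the promoter table, 12 entries in all. Among the entries not shown, the second FBXO7 window held 2 GC boxes and neither an NRF1 site nor an antioxidant core. SYNJ1, also called lower under MS275, had 3 windows with 0, 5 and 5 GC boxes, of which the last 2 overlap.

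MS275 was the toxicant under which these genes differed most from the vehicle. FBXO7, PINK1, VPS35 and SYNJ1 fell, by amounts from 0.29 to 0.62 on the log2 scale, and none of the 8 tested genes was called higher. PARK7, UCHL1, DNAJC6 and PLA2G6 did not pass the test. LRRK2 did not pass the expression filter, so counts are over 8 genes. The 4 called genes were 50% of the 8, against 43.2% of all 18852 genes called under MS275, with 23% of all genes lower and 20.1% higher. Of all calls under MS275 46.7% were higher, but 52.9% with the size factors of DESeq2 and 53.6% with DESeq2 itself. The split of these calls by direction thus depends on scaling. The share called among the 8 is near the background of this compound. The median log2 fold change of the 8 genes was -0.21, beside 0.04 over all genes tested. The test here and below is edgeR's quasi-likelihood test with Benjamini-Hochberg adjustment over 18852 genes, and each sentence names it as the edgeR adjusted p.

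**Figure D2:**
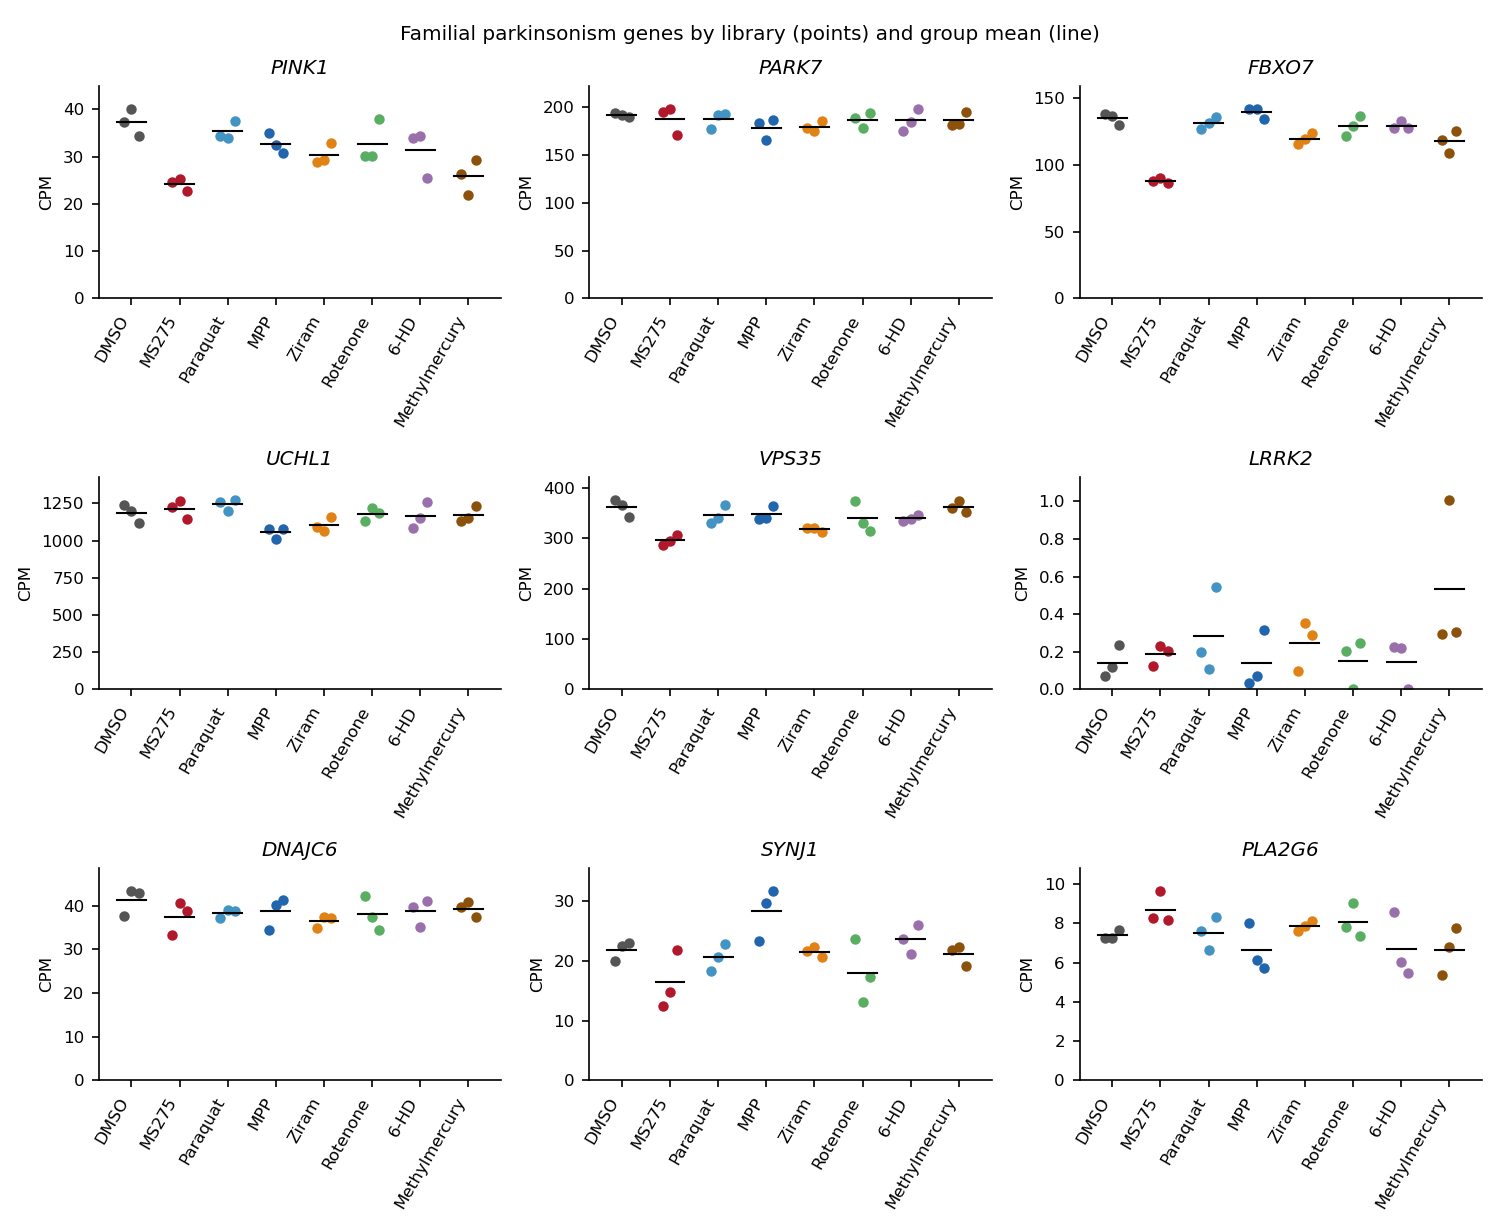
CPM of each of the 9 genes (one panel per gene, axes from 0) in each library, with 3 points for each group and a line at the group mean. FBXO7 and PINK1 under MS275 lie below all 3 DMSO libraries, while PARK7 and UCHL1 form nearly level rows across the 8 groups.

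FBXO7 (chromosome 22, 32474676 to 32498829, plus strand, GRCh38, GENCODE 29) had the most even replicates of the set, with a median coefficient of variation of 3.22% over the 8 groups. Its 3 DMSO libraries held 138, 136 and 130 CPM and its 3 MS275 libraries 88.0, 90.4 and 86.0 CPM. The groups lay far apart, with every MS275 library below every DMSO library. FBXO7 changed by a log2 fold of -0.61 ± 0.074 (SE), 0.655-fold, with an edgeR adjusted p of 8.88e-08. Under MPP the FBXO7 libraries held 141, 142 and 134 CPM, overlapping DMSO. Under methylmercury they held 118, 109 and 125 CPM and under ziram 116, 119 and 124 CPM, all below the lowest DMSO library, yet neither passed (log2 fold change -0.20 ± 0.074, edgeR adjusted p = 0.27, and -0.17 ± 0.073, edgeR adjusted p = 0.637). FBXO7 means under paraquat, rotenone and 6-HD lay between 129 and 131 CPM.

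PINK1 (chromosome 1, 20633455 to 20651511, plus strand) was lower than in DMSO under MS275 and came closest to the threshold under methylmercury. The DMSO libraries held 37.3, 40.2 and 34.4 CPM and the MS275 libraries 24.6, 25.3 and 22.8 CPM, with no overlap. PINK1 changed by a log2 fold of -0.62 ± 0.12 (SE), with an edgeR adjusted p of 0.000126. The methylmercury libraries held 26.4, 21.9 and 29.3 CPM of PINK1, all below the lowest DMSO library and spanning the MS275 values. Against DMSO this was a log2 fold change of -0.52 ± 0.12 (SE; 95% interval -0.77 to -0.27), which did not pass, with an edgeR adjusted p of 0.0562. That p ranged from 0.0222 without methylmercury replicate 3 to 0.64 without methylmercury replicate 2. PINK1 under methylmercury was called with DESeq2 (adjusted p = 0.00506) and in edgeR without the expression filter (adjusted p = 0.0118).

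In the remaining groups the PINK1 means lay between those of DMSO and MS275. The ziram libraries held 28.8, 29.4 and 32.9 CPM and the 6-HD libraries 34.0, 34.38 and 25.6 CPM, each below the lowest DMSO library of 34.39 CPM, for 6-HD by a margin far smaller than the spread. Neither passed (edgeR adjusted p = 0.581 and 0.871). The MPP libraries held 35.1, 32.4 and 30.8 CPM of PINK1, the rotenone libraries 30.1, 30.1 and 37.9, and the paraquat libraries 34.5, 34.1 and 37.5, all groups that overlapped DMSO. The PINK1 mean was thus below the DMSO mean in 7 of 7 toxicants, which share the same 3 DMSO libraries and are not independent of each other.

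The antisense gene PINK1-AS lies on the opposite strand and shares 1907 exonic bases with PINK1, and the strand setting of the counting is not given in the sources used here. PINK1-AS gave 390 reads in the 3 DMSO libraries, 5.47 ± 0.415 CPM, and 5.68 ± 0.546 CPM under MS275. Its log2 fold change was 0.06 ± 0.21 (edgeR adjusted p = 0.834), so the antisense row did not pass where PINK1 fell. Reads in the shared stretch, 1907 of the 4836 exonic bases of PINK1, cannot be assigned to 1 gene of the pair without strand.

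PARK7 (chromosome 1, 7954291 to 7985505, plus strand) was not called under any toxicant. It gave 194, 192 and 190 CPM in DMSO and 195, 198 and 171 CPM under MS275, where replicate 3 alone lay below the vehicle. The log2 fold change under MS275 was -0.03 (95% interval -0.18 to 0.12; edgeR adjusted p = 0.79), and it turned to 0.03 with the size factors of DESeq2 and on leaving out MS275 replicate 3. The group means ran from 179 CPM under MPP to 192 CPM in DMSO. In the other 6 toxicants the edgeR adjusted p of PARK7 lay between 0.438 under MPP and 1 under paraquat. Its intervals against DMSO ran from -0.26 under MPP to 0.12 under MS275 at the widest.

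UCHL1 (chromosome 4, 41256413 to 41268455, plus strand) gave between 11620 and 55040 reads per library and had the most reads of the set. Its DMSO libraries held 1242, 1202 and 1120 CPM and its MS275 libraries 1224, 1266 and 1149 CPM. The 2 groups overlapped, with a log2 fold change of 0.03 (95% interval -0.11 to 0.17; edgeR adjusted p = 0.749). The lowest group was MPP at 1081, 1009 and 1079 CPM, below every DMSO library. Against DMSO that difference was -0.17 ± 0.066 (SE) on the log2 scale and did not pass (edgeR adjusted p = 0.0986). It was called with library totals in place of TMM scaling (-0.26, edgeR adjusted p = 0.00476) and with the 2 groups fitted alone (edgeR adjusted p = 0.0494). The paraquat libraries, at 1260, 1200 and 1275 CPM, gave the highest UCHL1 mean.

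VPS35 (chromosome 16, 46656132 to 46689518, minus strand) fell modestly under MS275. The DMSO libraries held 376, 365 and 341 CPM and the MS275 libraries 286, 295 and 307 CPM, without overlap. VPS35 changed by a log2 fold of -0.29 ± 0.071 (SE), 0.82-fold, with an edgeR adjusted p of 0.00142. Ziram gave 321, 321 and 313 CPM of VPS35, also below every DMSO library, but did not pass (-0.18 ± 0.07, edgeR adjusted p = 0.52). Methylmercury stood at the vehicle level with 361, 373 and 352 CPM, and the other 4 toxicants had means from 339 to 347 CPM.

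The divergent neighbour of VPS35, ORC6, begins beside it at position 46689643 on the other strand and encodes a subunit of the origin recognition complex. It fell from 18.3 ± 1.56 to 9.38 ± 0.795 CPM under MS275 (log2 fold change -0.96 ± 0.15, edgeR adjusted p = 7.15e-06). Neither gene was called under another toxicant. Of the other neighbours, DDOST, beside the end of PINK1, was lower under MS275 (-0.24 ± 0.085, edgeR adjusted p = 0.0214). PAXBP1-AS1, which begins beside SYNJ1 on the other strand, did not pass under MS275 (0.09 ± 0.15, edgeR adjusted p = 0.672).

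LRRK2 (chromosome 12, 40196744 to 40369285, plus strand) could not be compared at this depth. It gave 130 reads over all 24 libraries, from 0 to 17 in a library. The DMSO libraries held 1, 3 and 8 reads and the MS275 libraries 3, 7 and 3. Methylmercury replicate 2 had the highest level with 15 reads, at 1.01 CPM. In a fit without the expression filter the intervals against DMSO spanned about 4 log2 units, for instance -1.9 to 2.44 under MS275. The lowest edgeR adjusted p of LRRK2 against DMSO in that fit was 0.799, under methylmercury, so no difference was detectable.

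DNAJC6 (chromosome 1, 65248219 to 65415869, plus strand) was not called under any toxicant. Its DMSO libraries held 37.5, 43.4 and 43.0 CPM and its MS275 libraries 33.2, 40.6 and 38.7 CPM, which overlapped (log2 fold change -0.14 ± 0.10, edgeR adjusted p = 0.282). The ziram libraries, at 34.9, 37.4 and 37.0 CPM, were the only ones of DNAJC6 that lay wholly below DMSO (edgeR adjusted p = 0.827). All 7 toxicant means of DNAJC6, from 36.4 to 39.3 CPM, were below the shared DMSO mean of 41.3 CPM.

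SYNJ1 (chromosome 21, 32628759 to 32728048, minus strand) had the widest range of the 8 tested genes, 2.55-fold between its lowest and highest library. The DMSO libraries held 20.1, 22.5 and 22.97 CPM, and the MS275 libraries 12.5, 14.9 and 21.9 CPM. MS275 replicates 1 and 2 were below the vehicle and replicate 3 was within it. SYNJ1 changed by a log2 fold of -0.43 ± 0.17 (SE), with an edgeR adjusted p of 0.0403. This call was lost on leaving out DMSO replicate 2 (edgeR adjusted p = 0.118), DMSO replicate 3 (0.138), MS275 replicate 1 (0.259) or MS275 replicate 2 (0.144). It was also lost with DESeq2 (adjusted p = 0.0771), with the size factors of DESeq2 in edgeR (0.0776) and with library totals (0.0531).

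Under MPP the SYNJ1 libraries stood on the other side of the vehicle, at 23.4, 29.8 and 31.8 CPM, all above the highest DMSO library. That difference of 0.37 ± 0.17 (SE) on the log2 scale did not pass (edgeR adjusted p = 0.166), although it was called with the 2 groups fitted alone (edgeR adjusted p = 0.0228). Rotenone gave 23.6, 13.1 and 17.3 CPM of SYNJ1, a wide spread that took in the DMSO range (edgeR adjusted p = 0.449). MS275 and MPP thus held the lowest and the highest SYNJ1 means, 16.4 and 28.3 CPM.

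SYNJ1 has a long coding sequence, and libraries differed in how long and short genes compared, a measure taken after the SYNJ1 values were seen. It is the median log2 deviation from the 24-library mean of the longest of 10848 coding genes (upper quartile, 2446 coding bases or more) minus that of the shortest (lower quartile, 993 or fewer). It was -0.079 and -0.090 in MS275 replicates 1 and 2, 0.187 in MS275 replicate 3, and from 0.044 to 0.154 in MPP, against -0.022 to 0.021 in DMSO. SYNJ1, VPS35, DNAJC6, PLA2G6 and LRRK2 are among the longest genes by this measure, and UCHL1 and PARK7 among the shortest. Under MPP the log2 fold changes (± SE) of the long genes VPS35 (-0.06 ± 0.07), DNAJC6 (-0.10 ± 0.10) and PLA2G6 (-0.15 ± 0.18) did not pass. Their edgeR adjusted p-values were 0.691, 0.622 and 0.668. SYNJ1 (0.37 ± 0.17) did not pass either. Of 12 dopaminergic markers tested under MPP 0 were called higher (5.77% of all genes) and 2 lower (5.02% of all genes). TH was among those lower and fell from 50.8 to 31.7 CPM (-0.68 ± 0.13, edgeR adjusted p = 0.00087). SLC6A3 did not pass, at 778 against 636 CPM (edgeR adjusted p = 0.0977). The part of these differences in the SYNJ1 and UCHL1 values was not tested.

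PLA2G6 (chromosome 22, 38111495 to 38205690, minus strand) had few reads, from 57 to 381 per library. Its DMSO libraries held 7.26, 7.27 and 7.69 CPM and its MS275 libraries 8.27, 9.67 and 8.15 CPM, all above the vehicle. A log2 fold change of 0.23 (95% interval -0.13 to 0.60) did not pass (edgeR adjusted p = 0.304). BAIAP2L2, which lies downstream of PLA2G6 on the same strand, rose from 8.06 ± 0.744 to 14.4 ± 1.34 CPM under MS275 (edgeR adjusted p = 0.000121). MAFF, which overlaps PLA2G6 on the other strand, did not pass under MS275 (0.17 ± 0.13, edgeR adjusted p = 0.291). In the other 6 toxicants PLA2G6 means ran from 6.63 CPM under MPP to 8.07 CPM under rotenone, and every group overlapped DMSO.

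**Figure D3:**
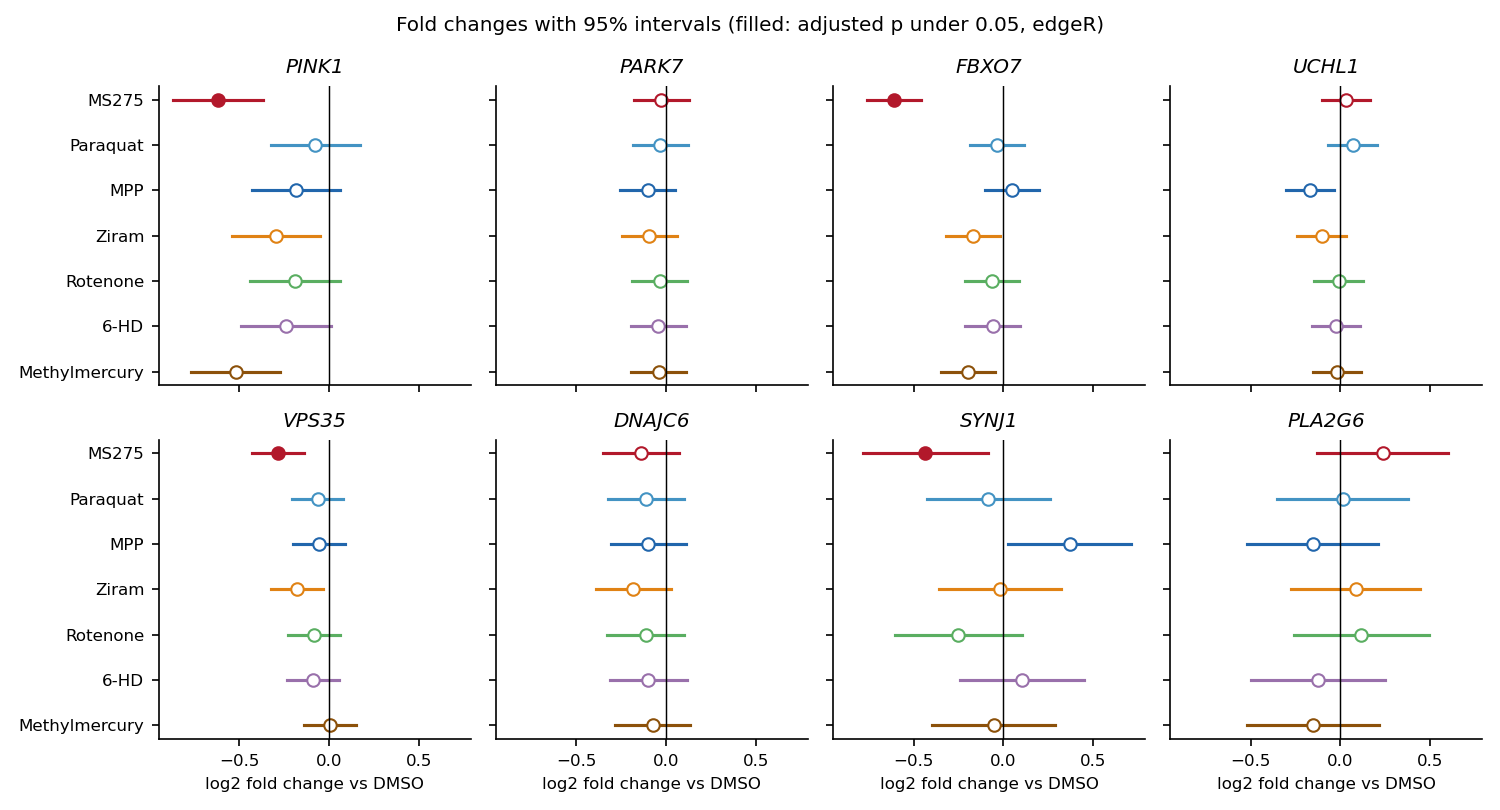
Log2 fold change against DMSO (point) with its 95% interval (bar) for the 8 tested genes under each of the 7 toxicants, filled where the edgeR adjusted p was under 0.05. The 4 filled points are all under MS275 (PINK1, FBXO7, VPS35 and SYNJ1), and PINK1 under methylmercury is the open point farthest from 0.

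Against the vehicle, the 6 toxicants other than MS275 called 0 of the 8 genes each. The share of all genes called was 0% under paraquat, 10.8% under MPP, 0.53% under ziram, 5.52% under rotenone, 0.0106% under 6-HD and 0.286% under methylmercury. At an unadjusted p under 0.05 edgeR counted 2 of the 8 genes under MPP (24.1% of all genes), 3 under ziram (6.49%), 2 under methylmercury (11.5%) and 0 under paraquat (0.965%), rotenone (19.9%) and 6-HD (5.7%). DESeq2 called PINK1 under methylmercury. In each of these 6 toxicants 6 or 7 of the 8 genes had a mean below the vehicle, and the median log2 fold change lay from -0.14 under ziram to -0.05 under paraquat. The share of all genes below the vehicle was not counted. Some signs turned with library totals in place of TMM scaling. FBXO7 went from 0.0482 to -0.0424 under MPP, SYNJ1 from -0.0194 to 0.0244 under ziram and UCHL1 from -0.0203 to 0.0018 under methylmercury. The 6 comparisons share the same DMSO libraries.

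Absence of overlap between the libraries of a toxicant and DMSO was counted separately from the test. Under MS275, 4 of the 8 genes had no overlap (55.6% of all genes tested, with 27.5% lower), the called genes FBXO7, PINK1 and VPS35 and the uncalled PLA2G6. None of the genes without overlap under the other toxicants passed. Under ziram there were 5 (21.2%, with 10.2% lower), namely PINK1, PARK7, VPS35, FBXO7 and DNAJC6, all lower. Under MPP there were 3 (36.3%, with 17.5% lower), PARK7 and UCHL1 lower and SYNJ1 higher. Under methylmercury there were 2 (19.9%, with 9.95% lower), PINK1 and FBXO7, and under 6-HD 1 (13%, with 7.13% lower), PINK1, all lower. There were 0 under paraquat (8.57%, with 4.34% lower) and rotenone (20.9%, with 11.3% lower).

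MPP and paraquat, both pyridinium compounds given at 5 µM for 6 h, allow a comparison at one dose. MPP has one N-methylated pyridinium ring joined to a phenyl ring, and paraquat has a pair of such rings joined to each other. Of the 8 genes 1 was called between them, UCHL1, against 11% of all genes (6.04% higher and 4.94% lower under MPP). UCHL1 stood at 1056 ± 40.9 CPM under MPP and 1245 ± 40.0 CPM under paraquat (SD, n = 3 each), without overlap, with a log2 fold change of -0.24 ± 0.066 (SE; edgeR adjusted p = 0.0178). The call was lost without paraquat replicate 1 (edgeR adjusted p = 0.0651), paraquat replicate 3 (0.0759) or MPP replicate 2 (0.105). SYNJ1 was 0.45 ± 0.17 higher under MPP and did not pass (edgeR adjusted p = 0.0804), but was called with the 2 groups fitted alone (0.0107). For the other 6 genes the intervals of the log2 difference reached from -0.53 for PLA2G6 to 0.23 for FBXO7, and edgeR adjusted p-values from 0.535 to 0.963.

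MS275 was also set against each other toxicant, which for paraquat and MPP was at the same dose. FBXO7 was lower under MS275 than under each of the 6, with log2 fold changes from -0.66 against MPP to -0.41 against methylmercury and edgeR adjusted p-values from 1.56e-08 to 3.24e-05. PINK1 was lower than under 5 of them and not than under methylmercury (-0.10, 95% interval -0.35 to 0.15, edgeR adjusted p = 0.541). VPS35 was lower than under 5 and not than under ziram (-0.11 ± 0.07, edgeR adjusted p = 0.242). SYNJ1 was lower than under MPP (-0.80 ± 0.17, edgeR adjusted p = 0.000228), 6-HD and ziram, and UCHL1 higher than under MPP (0.20 ± 0.066, edgeR adjusted p = 0.0127).

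Counts of called genes against the 6 toxicants were 3 of 8 for paraquat (43.4% of all genes), 5 for MPP (50.8%), 3 for ziram (40.9%), 3 for rotenone (44.3%), 4 for 6-HD (43.2%) and 2 for methylmercury (45%). All were lower under MS275 except UCHL1 against MPP, where 24.9% of all genes were higher and 25.9% lower. Among all genes, 20.4% were higher against paraquat and 20.3% against 6-HD, where 0 members were. Doses differ in the comparisons with ziram, rotenone, 6-HD and methylmercury.

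The FBXO7 calls against all 6 toxicants held in each alternative run, and so did PINK1 against paraquat and MPP, SYNJ1 against MPP and VPS35 against methylmercury. PINK1 against ziram was lost without MS275 replicate 1 or 3 or any 1 ziram library (edgeR adjusted p up to 0.175), against rotenone without rotenone replicate 3 (0.0565), and against 6-HD without 6-HD replicate 1 or 2 (up to 0.0892). VPS35 was lost against paraquat without paraquat replicate 3 (edgeR adjusted p = 0.0769), and against rotenone without MS275 replicate 1 or 2 or rotenone replicate 1 (up to 0.277). Against 6-HD it was lost without MS275 replicate 1 or 2 or 6-HD replicate 1 or 3 (edgeR adjusted p up to 0.0866). SYNJ1 against ziram was lost without MS275 replicate 1 or 2 or any 1 ziram library (edgeR adjusted p up to 0.304), and against 6-HD without MS275 replicate 1 or 2 or 6-HD replicate 3 (up to 0.111). UCHL1 against MPP was lost without MS275 replicate 2 (edgeR adjusted p = 0.0653) or MPP replicate 2 (0.0696). Other settings also ended some of these calls. With the size factors of DESeq2, VPS35 was lost against paraquat, MPP, rotenone and 6-HD (edgeR adjusted p from 0.0552 to 0.104), and PINK1 and SYNJ1 against ziram (0.0692 and 0.0912). With library totals VPS35 was lost against MPP (-0.12, edgeR adjusted p = 0.169) and rotenone (0.0597). Without the expression filter UCHL1 was lost against MPP (edgeR adjusted p = 0.0945), and VPS35 against rotenone (0.0636) and 6-HD (0.0569). DESeq2 did not call PINK1 or SYNJ1 against ziram (adjusted p = 0.0556 and 0.0918) or VPS35 against rotenone or 6-HD (0.0589 and 0.0786). With the 2 groups fitted alone VPS35 was lost against paraquat, rotenone and 6-HD (edgeR adjusted p up to 0.291), PINK1 against rotenone and 6-HD (up to 0.0755) and SYNJ1 against ziram (0.0592). PLA2G6, uncalled in the fit reported here, was called higher against MPP with DESeq2 (adjusted p = 0.0265) and with both other scalings, and against methylmercury with DESeq2 (0.0392). UCHL1 against ziram was called higher with DESeq2 (adjusted p = 0.0173), and SYNJ1 against paraquat and methylmercury lower with limma-voom (adjusted p = 0.0285 and 0.025).

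In the test of any difference among the 8 groups 4 of the 8 genes passed, against 55.3% of all genes: FBXO7 (edgeR adjusted p = 4.44e-07), PINK1 (0.000884), SYNJ1 (0.00923) and VPS35 (0.0124). UCHL1 (0.0597), PLA2G6 (0.384), DNAJC6 (0.834) and PARK7 (0.9) did not, by the same edgeR test. VPS35 was lost without MS275 replicate 1 (edgeR adjusted p = 0.0613) and with the size factors of DESeq2 (0.0523), while UCHL1 was called with those size factors (0.0231) and with DESeq2 itself (adjusted p = 0.00565).

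Genes that work with each member were followed through lists of partners. Under MS275 the mitophagy and mitochondrial import partners of PINK1 fell in 19 of 39 tested cases and rose in 0, with a median log2 fold change of -0.25 beside 0.04 over all genes. That is 48.7% called, against 43.2% of all genes, with 23% of all genes lower and 20.1% higher. TOMM40, the pore of the outer-membrane import channel that PINK1 docks on, fell from 129 to 75 CPM (-0.78 ± 0.14, edgeR adjusted p = 6.06e-05). Its partner TOMM70, an import receptor, fell from 222 to 138 CPM (-0.69 ± 0.081, edgeR adjusted p = 4.36e-08). USP30, a deubiquitinase that opposes mitophagy, fell from 26.8 to 16.1 CPM (-0.75 ± 0.13, edgeR adjusted p = 1.51e-05), so the genes that fell include one known to act against mitophagy.

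The SCF ligase list of FBXO7 and UCHL1 partners had 7 of 16 tested genes lower and 0 higher (median -0.19), 43.8% called beside 43.2% of all genes. CUL1, the scaffold of the ligase, fell from 110 to 67.9 CPM (-0.69 ± 0.081, edgeR adjusted p = 4.94e-08), and UCHL5, a proteasomal deubiquitinase related to UCHL1, from 47.8 to 32.3 CPM (-0.57 ± 0.14, edgeR adjusted p = 0.00145). PSMF1, a proteasome regulator that binds FBXO7, fell from 80.6 to 66.4 CPM (-0.28 ± 0.084, edgeR adjusted p = 0.00792).

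Of the 22 retromer and WASH genes 12 fell and 2 rose (median -0.39), 63.6% called, the largest share of the 7 partner lists, beside 43.2% of all genes. SNX27, which links cargo to retromer, fell from 43.3 to 21.4 CPM (-1.02 ± 0.10, edgeR adjusted p = 2.52e-09), and VPS26B, a subunit bound to VPS35, from 99.1 to 61.9 CPM (-0.68 ± 0.089, edgeR adjusted p = 3.41e-07). WASHC2A and WASHC2C, near-identical copies whose reads may be split between them, fell by 1.24 and 1.23 on the log2 scale. SORL1, a sorting receptor, rose from 2.35 to 5.35 CPM (1.17 ± 0.24, edgeR adjusted p = 0.000168).

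For LRRK2, itself too low to test, 4 of 25 partners rose and 6 fell (median -0.11), beside 20.1% of all genes higher and 23% lower. PPM1H, the phosphatase that removes LRRK2's mark from RAB proteins, rose from 36.4 to 76.7 CPM (1.08 ± 0.11, edgeR adjusted p = 6.72e-09), while RAB8A, a substrate, fell from 18.4 to 10.6 CPM (-0.80 ± 0.12, edgeR adjusted p = 4.83e-06). Of 34 genes of the clathrin coat cycle 6 rose and 14 fell (median -0.21), beside the same shares of all genes. SYNJ2, the paralogue of SYNJ1, rose from 2.18 to 18.7 CPM (3.07 ± 0.23, edgeR adjusted p = 1.34e-11), and SH3GL2, the endophilin that recruits synaptojanin, from 67.9 to 115 CPM (0.76 ± 0.094, edgeR adjusted p = 1.35e-07). The kinase AAK1 fell from 54.8 to 36.8 CPM (-0.59 ± 0.13, edgeR adjusted p = 0.000301).

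PLA2G6-type enzymes were split, with 3 of 19 higher and 4 lower (median 0.15), beside 20.1% of all genes higher and 23% lower. LPCAT2 rose from 8.37 to 18.5 CPM (1.14 ± 0.17, edgeR adjusted p = 2.74e-06) and LPCAT4, another acyltransferase of lysophospholipids, fell from 15.6 to 7.25 CPM (-1.09 ± 0.14, edgeR adjusted p = 3.57e-07). Of 24 other parkinsonism genes 2 rose and 11 fell (median -0.24), beside the same shares of all genes. DNAJC13, an endosomal co-chaperone, fell from 58.9 to 29.4 CPM (-1.01 ± 0.11, edgeR adjusted p = 1.44e-08), and SLC39A14, a manganese transporter, rose from 120 to 238 CPM (0.99 ± 0.081, edgeR adjusted p = 5.27e-11).

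**Figure D4:**
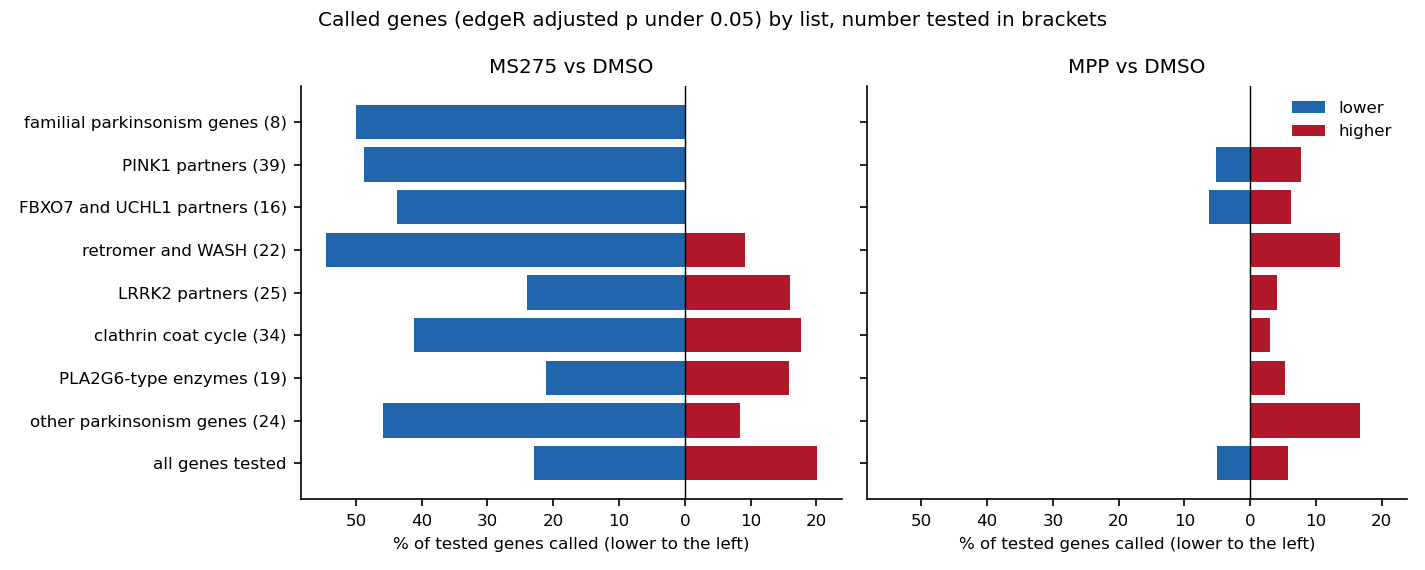
Share of tested genes called lower (bars to the left) and higher (bars to the right) by edgeR at an adjusted p under 0.05, for the 8 tested members, 7 partner lists and all genes tested, under MS275 (left panel) and MPP (right panel). Under MS275 the PINK1 partners (19 of 39) and the FBXO7 and UCHL1 partners (7 of 16) have bars on the lower side only, and under MPP no list has more than 16.7% called.

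Under MPP fewer partners were called, against 5.77% of all genes higher and 5.02% lower. Among the 39 tested PINK1 partners 3 rose and 2 fell. RHOT1, a PINK1-regulated adaptor of mitochondrial transport, rose from 88.4 to 135 CPM (0.61 ± 0.075, edgeR adjusted p = 1.29e-06) and the mitophagy receptor OPTN from 74.9 to 100.2 CPM (0.42 ± 0.085, edgeR adjusted p = 0.00116). PARL, the protease that cleaves PINK1, fell from 50.0 to 39.4 CPM (-0.34 ± 0.10, edgeR adjusted p = 0.0234). The retromer list had 3 higher, with VPS26B at 127 against 99.1 CPM (0.36 ± 0.088, edgeR adjusted p = 0.00668), and the other parkinsonism genes 4 higher. With library totals in place of TMM scaling the share of all MPP calls that were higher went from 53.5% to 27.5%, so direction counts under MPP depend on scaling.

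Few partners were called under the 5 remaining toxicants, where 2.76% of all genes were higher and 2.76% lower under rotenone, 0.408% higher under ziram and 0.223% higher under methylmercury. Under rotenone RHOT1 rose (88.4 to 123 CPM; 0.48 ± 0.076, edgeR adjusted p = 0.000126) as did OPTN (74.9 to 93.0 CPM; edgeR adjusted p = 0.0276), and SYNJ2 rose from 2.18 to 5.11 CPM (1.21 ± 0.24, edgeR adjusted p = 0.00204). Under ziram BNIP3, a mitophagy receptor induced by hypoxia signalling, rose from 116 to 178 CPM (0.62 ± 0.11, edgeR adjusted p = 0.00329). Under methylmercury HSPA8, the chaperone that works with auxilin, rose from 2635 to 3346 CPM (0.34 ± 0.064, edgeR adjusted p = 0.00949). Under paraquat and 6-HD 0 genes of the 7 lists were called. For rotenone, ziram and methylmercury counts by list are not given here, and the genes named are examples that rose.

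Markers of other cell states also moved with MS275, under which 23% of all genes were called lower and 20.1% higher. Summed over 17 cycling-cell genes the level was 619 to 668 CPM under MS275 and 868 to 919 CPM in DMSO, with 12 of 17 lower. Over 11 precursor genes it was 426 to 459 against 294 to 318 CPM, with 7 higher and 1 lower. Over 16 dopaminergic genes it was 1200 to 1390 against 769 to 873 CPM, with 8 of 12 tested higher and 1 lower, and over 15 pan-neuronal genes 7810 to 9320 against 7480 to 8990 CPM. Over 12 astrocyte and oligodendrocyte genes it was 224 to 255 against 204 to 219 CPM, with 6 of 9 tested higher, and over 10 microglial and leukocyte genes 17.2 to 23.4 against 1.57 to 2.42 CPM. TMEM119 held most of the last sum, at 17.3 CPM, while AIF1 gave 3 reads and GFAP 4 reads in the 3 MS275 libraries. SLC6A3 held most of the dopaminergic sum, at 1010 CPM under MS275 and 636 CPM in DMSO, while TH stood at 74.7 and 50.8 CPM. Under rotenone the precursor sum was 372 to 417 CPM, with 2 of 11 higher and 1 lower, and the dopaminergic sum 975 to 1320 CPM, with 1 of 12 tested higher and 1 lower. Among all genes 2.76% were called higher and 2.76% lower under rotenone. SLC6A3 held most of that dopaminergic sum, at 1048 CPM, while TH stood at 38.2 CPM. Under methylmercury the cycling sum was 964 to 1170 CPM, with 2 of 17 higher (0.223% of all genes). Those were TOP2A, which untangles replicated DNA, at 204 against 141 CPM, and CDK1, the mitotic kinase, at 59.8 against 36.9 CPM (edgeR adjusted p = 0.0365 for both). The part of these markers in the levels of the 9 genes was not tested.

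The genes whose log2 CPM followed each member most closely were found over the 24 libraries among 10848 coding genes, as a description across libraries that share treatments. FBXO7 was most like THOC5 (Pearson r 0.96), APH1A (0.956) and SAP30L (0.955), and SYNJ1 most like BPTF (0.905), GAPVD1 (0.895) and ATF2 (0.886). VPS35 followed C3orf38 (0.89), ZMAT2 and RSPRY1, and PINK1 followed IP6K1 (0.873), MMP24 and REXO4. UCHL1 followed SUMF2 (0.858), COX8A and PSMA7, and PARK7 followed BEX3 (0.776), C14orf2 and CHCHD2. DNAJC6 followed SFT2D2 (0.712), PPP1R21 and TRAK2, and PLA2G6 followed ARC (0.751), ECHDC3 and TMEM187. Among the members themselves the highest value was 0.796 between PINK1 and FBXO7, then 0.685 between PARK7 and UCHL1, and the lowest -0.583 between SYNJ1 and PLA2G6 and -0.582 between SYNJ1 and UCHL1.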

How the data were processed

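Per the labels' protocols, polyadenylated RNA was depleted of ribosomal sequence, prepared with TruSeq chemistry and sequenced. The tools named per the submitters' processing notes are STAR, HTSeq and DESeq, with GRCh38 as the build. The sources used here do not give their versions, annotation or strand setting. The authors deposited raw counts and a normalized signal for 58051 genes in 24 libraries, and 0 columns were without a sample. 100% of the deposited normalized values returned to whole counts within 0.01. Rows with a gene identifier but no symbol (266) held 0.00492% of the counts and were kept.

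Counts were fitted with edgeR 4.0.16 (R 4.3.3) after TMM scaling and the default expression filter (18852 genes), with 1 coefficient per group over 24 libraries (16 residual degrees of freedom), the quasi-likelihood test and Benjamini-Hochberg adjustment at 0.05. The test was checked on simulated counts. Depth was 9.69 to 46.9 megareads per library. The SE is the log2 fold change divided by the root of F, and intervals are at 95%. Exon lengths and coordinates came from GENCODE 29 (57447 genes matched), promoters from RefSeq (GRCh38.p14). Alternatives were DESeq2 1.42.0, limma-voom (limma 3.58.1), other scalings, the authors' normalized values, no filter, a replicate block, 2 groups fitted alone and leaving out each library.

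The members were given by name, and members and lists were chosen with earlier results of these data known. All 9 members were named in each comparison. From each partner list up to 4 called genes with the largest change in each direction and at least 5 CPM in the higher group could be named. For each member the 3 most correlated coding genes were named. TMEM119, TOP2A, CDK1, BAIAP2L2 and the measure of gene length by library were chosen after their values were seen. Figures were drawn with matplotlib 3.10.9 (Python 3.11.15, numpy 2.4.6, pandas 2.3.3).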

Additional observations from a re-analysis of the deposited data

How the results depend on the processing

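The calls of FBXO7, PINK1 and VPS35 under MS275 against DMSO held in each alternative run, and 4 of 8 genes stayed called except where SYNJ1 was lost. With library totals 1 member was called under MPP against DMSO. Without the expression filter 1 member was called under methylmercury and 2 in MPP against paraquat, and genes called were 3 under paraquat, 160 under ziram, 18 under 6-HD and 249 under methylmercury. DESeq2 called 184 genes under ziram, 8 under 6-HD, 310 under methylmercury, and 1 member there. With the 2 groups fitted alone, genes called were 3965 under MPP, 588 under ziram, 215 under rotenone, 1 under 6-HD and 3496 in MPP against paraquat. In that fit members called were 2 under MPP, 2 in MPP against paraquat, 1 in MS275 against rotenone and 2 in MS275 against 6-HD. The cause of these moves was not tested. Replicate numbers did not pair the samples: over 84 same-number pairs the correlation of deviations ran from -0.106 to 0.089, and 6 of 24 libraries were closest to their own number. With the replicate block 0 genes were called under 6-HD, and no count of members called moved by over 1.5 times.

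Leaving out 1 library at a time gave the following ranges of genes called against DMSO: 6787 to 7929 under MS275, 0 to 0 under paraquat, 1165 to 1468 under MPP, 40 to 74 under ziram, 493 to 1660 under rotenone, 0 to 2 under 6-HD and 6 to 171 under methylmercury. Members called ranged from 3 to 4 under MS275, 0 to 1 under methylmercury and 0 to 2 in MPP against paraquat, where genes called ranged from 1186 to 1506. For MS275 against the other toxicants members called ranged from 2 to 4 (paraquat), 4 to 6 (MPP), 1 to 3 (ziram), 2 to 4 (rotenone), 2 to 4 (6-HD) and 2 to 3 (methylmercury), and in the test over all groups from 3 to 5. Library totals moved the fold changes of MS275 against MPP by a median of 0.111 on the log2 scale and the higher share of its calls from 49% to 59%. They moved the higher share of calls in MPP against paraquat from 55% to 26.5% and in ziram from 77% to 88.7%. LRRK2 had too few reads to pass the expression filter. PLA2G6, with 4326 reads over the 24 libraries, had wide intervals, with an SE of 0.18 under MS275. SYNJ1, with 12454 reads, had an SE of 0.17 there. The part of read number in these widths was not tested.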
